A study of Mus musculus with 30 samples.

Results

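The mRNAs of 8 genes that carry, store and convert vitamin A were followed in mouse liver: *Rbp4*, *Lrat*, *Pnpla3*, *Hsd17b13*, *Rdh11*, *Dhrs3*, *Aldh1a1* and *Cyp26a1*. They were taken by gene symbol from a table of 55450 genes, and all 8 were present. Liver RNA came from 30 male mice on HFCFD, a diet rich in fat, cholesterol and fructose, in 3 experiments that each set 5 knockout mice beside 5 *Cebpa* fl/fl mice. All mice carried the floxed *Cebpa* alleles, and the knockout mice also carried a Cre recombinase driven by the albumin promoter, which acts in hepatocytes. In HFCFD2W the Cre was constitutive (*Cebpa* ΔHep) and the diet lasted 2 weeks. In HFCFD8W+T10D and HFCFD12W+T10W it was the tamoxifen-dependent form (*Cebpa* ΔHep,ERT2), and both genotypes received tamoxifen, for 10 days at 8 weeks of diet and for the last 10 of 22 weeks of diet. Ages were not given in the sources used here. Strain of Cre, length of feeding and tamoxifen therefore changed together between HFCFD2W and the other experiments and cannot be told apart.

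The liver holds most of the body's vitamin A. Hepatocytes take up retinyl esters from the diet and hydrolyse them to retinol, which leaves the cell bound to RBP4 or passes to hepatic stellate cells, where LRAT esterifies it again for storage in lipid droplets. Retinol is oxidised reversibly to retinaldehyde and then irreversibly to retinoic acid, the ligand of the retinoic acid receptors, and enzymes of the CYP26 family degrade retinoic acid. Stellate cells lose their retinoid droplets when they become collagen-producing cells in fibrosis.

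In HFCFD12W+T10W, the livers of knockout mice held less *Rbp4* (0.61 of the *Cebpa* fl/fl level), *Aldh1a1* (0.58 of that level), *Cyp26a1* (0.58) and *Hsd17b13* (0.78) and more *Lrat* (1.86-fold) and *Rdh11* (1.78-fold) mRNA. In HFCFD8W+T10D only *Aldh1a1* passed the test and was lower, and in HFCFD2W only *Dhrs3*, also lower. A gene passed at an adjusted p under 0.05 in edgeR's quasi-likelihood test within an experiment. *Cyp26a1* and *Hsd17b13* in HFCFD12W+T10W no longer passed without certain single mice or when libraries were scaled by their totals alone. Of the 8 genes, 7 had enough counts to be tested, and the exception was *Pnpla3*. The 1 passing gene in HFCFD2W stood against 16.7% of all 11068 tested genes (8.6% higher and 8.09% lower in knockouts) and the 1 in HFCFD8W+T10D against 17.1% of 11990 (10.3% higher, 6.85% lower). The 6 in HFCFD12W+T10W, 2 higher and 4 lower, stood against 51.1% of 12463 (27.4% higher, 23.8% lower). No member passed with a fold change over 2 in any experiment, against 3.07%, 6.1% and 17.7% of tested genes. At an unadjusted p under 0.05 there were 2, 5 and 7 members. The share of all tested genes at that threshold was not computed, so these counts show nothing particular to the members. The median log2 fold change of the 7 members was -0.12, -0.01 and -0.36, beside medians of 0.01 over all tested genes in each experiment.

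Each library held 7996123 to 10257347 counts. Levels within a gene are given as counts relative to the TMM-scaled library total (CPM), and levels between genes as length-corrected transcript abundance (TPM). The targeted gene separated the genotypes in every experiment. *Cebpa* CPM lay between 149 and 193 in the *Cebpa* fl/fl mice of HFCFD2W and between 3.43 and 5.68 in the knockouts, which kept 2.68% of the mean. The knockouts kept 11.9% in HFCFD8W+T10D and 18.6% in HFCFD12W+T10W. Scaling to library totals alone in place of TMM moved the median log2 fold change of all genes to 0.38 in HFCFD12W+T10W and 0.19 in HFCFD8W+T10D, so changes there are relative to the bulk of genes. On that scale 4 members still passed in HFCFD12W+T10W, *Lrat* and *Rdh11* higher and *Rbp4* and *Aldh1a1* lower. The share of all tested genes that passed on that scale was not computed, so this count shows nothing particular to the members.

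Per unit length, *Rbp4* was the most abundant member in each group, with mean TPM between 3063 in the HFCFD12W+T10W knockouts and 3911 in the HFCFD8W+T10D *Cebpa* fl/fl mice. *Aldh1a1* came next in each group (mean TPM 684 to 1332), followed by *Hsd17b13* (237 to 301) and *Dhrs3* (49.8 to 64.8). *Rdh11*, *Lrat* and *Cyp26a1* were scarce, with mean TPM of 4.00 to 8.51, 2.24 to 9.37 and 0.82 to 5.26, and changed places between groups. *Pnpla3* was the lowest in each group (mean TPM 0.076 to 1.05). When the 6 groups were ordered by mean CPM for each member, the ranges of neighbouring groups overlapped in every case.

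**Figure D1:**
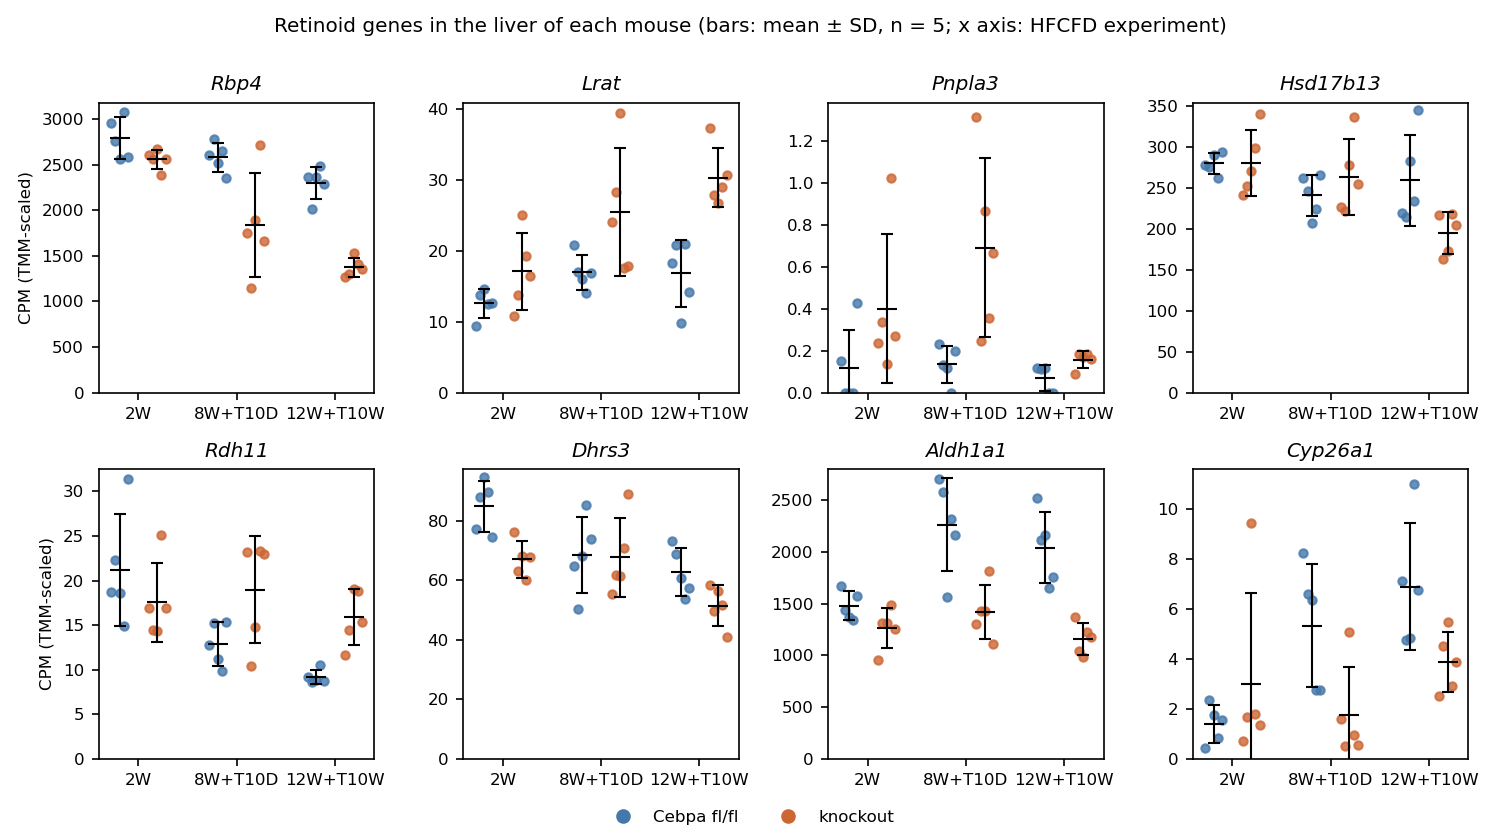
CPM of the 8 genes in each of the 30 mice. Each point is 1 mouse, the horizontal marks and bars are mean ± SD of 5 mice (bars that would reach below 0 are cut there), and the x axis gives the 3 HFCFD experiments. In HFCFD12W+T10W the knockouts lay apart from the *Cebpa* fl/fl mice for *Rbp4*, *Lrat*, *Rdh11* and *Aldh1a1*.

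*Rbp4* encodes the plasma protein that carries retinol from the liver to other organs and is made mainly by hepatocytes (chromosome 19, GRCm38, 38116629 to 38125281, minus strand). The HFCFD12W+T10W *Cebpa* fl/fl mice had 2367, 2016, 2361, 2485 and 2293 CPM. The knockouts had 1267, 1301, 1535, 1413 and 1359 CPM. Every knockout was below every *Cebpa* fl/fl mouse, and the log2 fold change was -0.70 ± 0.09 (SE, adjusted p = 3.2e-05). The difference passed with each of the 10 mice left out in turn and at each other setting tried, but was smaller under scaling to library totals (log2 fold change -0.33, adjusted p = 0.0026). In bulk liver, fewer cells of a type and less RNA per cell cannot be told apart. The HFCFD8W+T10D *Cebpa* fl/fl mice had 2355 to 2783 CPM and the knockouts 1753, 1143, 1890, 2721 and 1661 CPM. In this experiment 4 of the 5 knockouts were below all *Cebpa* fl/fl mice, and the log2 fold change of -0.48 ± 0.20 did not pass (adjusted p = 0.112). Without knockout replicate 4, the mouse at 2721 CPM, it was -0.67 (adjusted p = 0.012). With all mice kept, it passed in the joint fit of all 30 libraries (adjusted p = 0.00604) and at no other setting tried. In HFCFD2W the knockouts (2389 to 2675 CPM) lay within the lower part of the *Cebpa* fl/fl range or just below it (2563 to 3083 CPM), with a log2 fold change of -0.12 ± 0.08 (adjusted p = 0.299).

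*Lrat* encodes the enzyme that esterifies retinol and in liver is a product mainly of stellate cells (chromosome 3, GRCm38, 82892579 to 82903973, minus strand). *Lrat* in the HFCFD12W+T10W *Cebpa* fl/fl mice was 18.3, 20.9, 9.88, 21.01 and 14.1 CPM. The knockouts had 37.3, 27.9, 26.8, 29.01 and 30.7 CPM. The knockouts were all higher than the *Cebpa* fl/fl mice, and the log2 fold change was 0.90 ± 0.18 (SE, adjusted p = 0.000944), which passed with any mouse left out. In HFCFD8W+T10D the knockouts spread from 17.6 to 39.4 CPM and the *Cebpa* fl/fl mice from 14.02 to 20.9 CPM. The genotypes overlapped, and the log2 fold change of 0.60 ± 0.21 missed the threshold (adjusted p = 0.0657), but passed without knockout replicate 4 (0.70, adjusted p = 0.0267) or 5 (0.69, adjusted p = 0.0319). Without knockout replicate 3, the mouse at 39.4 CPM, it was 0.39 (adjusted p = 0.164). With all mice kept, it passed with DESeq2 (adjusted p = 0.0475), in the joint fit of all 30 libraries (0.0374) and with library totals (0.0275). At no other setting tried did it pass. In HFCFD2W the values were 9.35 to 14.7 CPM in *Cebpa* fl/fl mice and 10.8 to 25.1 CPM in knockouts, with a log2 fold change of 0.43 ± 0.20 (adjusted p = 0.158). It passed there without knockout replicate 2 (0.56, adjusted p = 0.0459) and was 0.26 without knockout replicate 4 (adjusted p = 0.343), the mouse at 25.1 CPM.

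Most listed markers of stellate cells were also higher in the HFCFD12W+T10W knockouts. The list for quiescent stellate cells held *Reln*, *Hgf*, *Ngfr*, *Ecm1*, *Colec11*, *Hand2*, *Rgs5*, *Des* and *Pdgfrb*. Whether these genes mark only the quiescent state was not tested. Of the 9 genes, 7 passed upwards and 1 downwards in the HFCFD12W+T10W knockouts, where 27.4% of all tested genes were higher and 23.8% lower. Their median log2 fold change was 0.85. Their summed level was 291 to 392 CPM in knockouts and 197 to 259 CPM in *Cebpa* fl/fl mice. All 8 genes of activated stellate cells were higher there (median log2 fold change 3.01), with summed levels of 813 to 1095 CPM against 66.8 to 134 CPM. In HFCFD8W+T10D 0 of 9 quiescent and 3 of 7 tested activated markers were higher, and in HFCFD2W 1 of 9 and 0 of 6, against 10.3% and 8.6% of all tested genes. No gene of either list was at 0 in every library. The part of the stellate cell markers in the *Lrat* difference was not tested. Markers of other cells moved as well: of 8 hepatocyte genes, 0, 3 and 4 were lower and none was higher in the knockouts of HFCFD2W, HFCFD8W+T10D and HFCFD12W+T10W, where 8.09%, 6.85% and 23.8% of all tested genes were lower. The summed hepatocyte markers fell in HFCFD12W+T10W from 105730 to 131086 CPM in *Cebpa* fl/fl mice to 68392 to 76438 CPM in knockouts, and their part in the lower *Rbp4* and *Aldh1a1* was not tested.

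*Pnpla3* and *Hsd17b13* encode proteins of hepatocyte lipid droplets. PNPLA3 is a lipase that can act on triglycerides and retinyl esters, and HSD17B13 is a dehydrogenase for which retinol is a substrate in vitro; inherited variants of both human genes are linked to fatty liver disease. *Pnpla3* (chromosome 15, GRCm38, 84167837 to 84187236, plus strand) was at the limit of detection, with 0 to 14 counts per library and at least 1 count in 24 of 30 libraries. By count, in HFCFD8W+T10D, the *Cebpa* fl/fl mice had 2, 1, 1, 0 and 2 counts and the knockouts 14, 3, 8, 3 and 7 counts. The knockouts were all higher, with a mean of at least 2.05 times the level of 3 counts per library, and an exact two-sided permutation test of log2 CPM gave p = 0.00794, the smallest value this design allows (0.0238 adjusted over the 3 experiments). In HFCFD2W the summed counts were 16 in knockouts and 4 in *Cebpa* fl/fl mice (exact permutation p = 0.0794, adjusted 0.0794), and in HFCFD12W+T10W 9 and 3 (exact permutation p = 0.0317, adjusted 0.0476). In HFCFD12W+T10W no library held more than 2 counts, so no fold change is given.

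*Hsd17b13* (chromosome 5, GRCm38, 103955440 to 103977410, minus strand) was 237 to 301 TPM on average in every group. In the *Cebpa* fl/fl mice of HFCFD12W+T10W *Hsd17b13* stood at 219, 214, 283, 233 and 344 CPM. The knockouts had 217, 164, 172, 218 and 205 CPM. The groups overlapped, and the log2 fold change was -0.36 ± 0.14 (adjusted p = 0.0431). This call was lost in 5 of 10 fits without 1 mouse: without *Cebpa* fl/fl replicate 3 (adjusted p = 0.0835) or 5 (0.0945) and without knockout replicate 2 (0.102), 3 (0.0908) or 5 (0.06). Under scaling to library totals the log2 fold change was 0.004 (adjusted p = 0.98). In HFCFD2W (261 to 294 against 240 to 339 CPM in knockouts) and HFCFD8W+T10D (207 to 265 against 222 to 336 CPM) the log2 fold changes were 0.004 ± 0.09 and 0.14 ± 0.13, with adjusted p of 0.986 and 0.515.

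*Rdh11* encodes a microsomal retinaldehyde reductase that uses NADPH (chromosome 12, GRCm38, 79174337 to 79192293, minus strand). *Rdh11* in HFCFD12W+T10W was low in the *Cebpa* fl/fl mice, at 9.15, 8.61, 8.85, 10.6 and 8.79 CPM. The knockouts had 11.7, 14.5, 19.1, 18.9 and 15.4 CPM. The lowest knockout exceeded the highest *Cebpa* fl/fl mouse, and the log2 fold change was 0.83 ± 0.14 (adjusted p = 0.00025), which passed with any mouse left out. In HFCFD8W+T10D the *Cebpa* fl/fl mice had 9.85 to 15.4 CPM and the knockouts 23.2, 10.4, 14.8, 23.4 and 22.99 CPM. In that experiment 3 knockouts were above all *Cebpa* fl/fl mice and 2 were among them (log2 fold change 0.57 ± 0.22, adjusted p = 0.0926). Without knockout replicate 2, at 10.4 CPM, the log2 fold change was 0.72 (adjusted p = 0.0175). With all mice kept, it passed in the joint fit of all 30 libraries (adjusted p = 0.045) and with library totals (0.0263). At no other setting tried did it pass. In HFCFD2W the knockouts (14.3 to 25.2 CPM) overlapped the *Cebpa* fl/fl mice (14.9 to 31.4 CPM), with a log2 fold change of -0.27 ± 0.20 (adjusted p = 0.403), which was -0.44 without knockout replicate 5 and -0.08 without *Cebpa* fl/fl replicate 5.

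*Dhrs3* encodes a retinaldehyde reductase that limits the formation of retinoic acid (chromosome 4, GRCm38, 144892827 to 144928209, plus strand). In HFCFD2W the *Cebpa* fl/fl mice had 77.3, 88.0, 94.7, 89.5 and 74.4 CPM. The knockouts had 76.1, 63.2, 68.0, 59.9 and 68.0 CPM. All but 1 of the knockouts were below the lowest *Cebpa* fl/fl mouse, and the log2 fold change was -0.34 ± 0.08 (adjusted p = 0.0152). The call was kept with any mouse left out and lost in the joint fit of all 30 libraries (adjusted p = 0.0733). In HFCFD8W+T10D the log2 fold change was -0.008 ± 0.15 (adjusted p = 0.98), with 50.5 to 85.1 CPM in *Cebpa* fl/fl mice and 55.3 to 89.1 CPM in knockouts. In HFCFD12W+T10W it was -0.24 ± 0.11 (adjusted p = 0.0771), with 53.7 to 73.3 against 41.0 to 58.5 CPM. There it passed without *Cebpa* fl/fl replicate 4 (-0.31, adjusted p = 0.0276) or knockout replicate 1 (-0.30, adjusted p = 0.0473), and took the opposite sign under scaling to library totals (0.12).

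*Aldh1a1* encodes a cytosolic retinaldehyde dehydrogenase that makes retinoic acid and is abundant in hepatocytes (chromosome 19, GRCm38, 20492715 to 20643465, plus strand). After 10 weeks of tamoxifen, in HFCFD12W+T10W, the *Cebpa* fl/fl mice had 2522, 2122, 2167, 1654 and 1758 CPM. The knockouts had 1374, 1040, 983, 1224 and 1174 CPM. No knockout reached the lowest *Cebpa* fl/fl mouse, and the log2 fold change was -0.78 ± 0.13 (adjusted p = 0.000278). It passed with any mouse left out and, at a smaller size, under scaling to library totals (-0.41, adjusted p = 0.0126). In HFCFD8W+T10D the *Cebpa* fl/fl mice had 2711, 2580, 1561, 2317 and 2161 CPM and the knockouts 1304, 1435, 1426, 1818 and 1110 CPM. Only *Cebpa* fl/fl replicate 3 came down into the knockout range, and the log2 fold change was -0.66 ± 0.18 (adjusted p = 0.0248). The call was lost in 5 of 10 fits without 1 mouse: *Cebpa* fl/fl replicate 1 (adjusted p = 0.0622), 2 (0.0541) or 4 (0.0545), or knockout replicate 1 (0.0562) or 3 (0.0572). In HFCFD2W the log2 fold change was -0.23 ± 0.11 (adjusted p = 0.198), with 1347 to 1670 against 955 to 1492 CPM, and -0.14 without knockout replicate 2. Reads of *Aldh1a1* may be shared with its close paralog *Aldh1a7*, between which the authors' counting divides them.

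Windows of 300 bases around the annotated starts (250 before and 50 after) were available for all 8 genes from RefSeq (GRCm38.p6), 13 windows in all because some genes have several starts. The letters TTNNGNAA, a loose form of the site bound by C/EBP proteins, were searched on both strands and occurred in 11 of the 13 windows and in 7 of the 8 genes, *Cyp26a1* being the exception. They occurred in 40.7% of all 32851 promoter windows, so a match is common and describes letters only. For *Rbp4* and *Aldh1a1*, the abundant members that were lower in HFCFD12W+T10W, 2 of 3 and 2 of 4 matches are shown in capitals in runs of 30 bases, each read 5′ to 3′ on the strand of its gene. Positions count from the RefSeq starts, which need not be those of the gene coordinates given above, and both *Aldh1a1* matches shown belong to the same start.
*Rbp4*, chr19:38125312-38125341, minus strand, match at -9 to -2 from the start: aaaatatgcccTTTCTCAAagggggaaaaa
*Rbp4*, chr19:38124921-38124950, minus strand, match at -128 to -121 from another start: gtcagggagcgTTATGCAAgctcggccgcc
*Aldh1a1*, chr19:20492421-20492450, plus strand, match at -151 to -144: aggtggaagacTTTCTCAAaggaaaagcaa
*Aldh1a1*, chr19:20492559-20492588, plus strand, match at -13 to -6: aggcagagaatTTTGGCAAagatgagtatg

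*Cyp26a1* encodes the main enzyme that removes retinoic acid, and its transcription is induced by retinoic acid itself, through retinoic acid receptors at its promoter (chromosome 19, GRCm38, 37697798 to 37701536, plus strand). The first 240 bases of its window are shown because this promoter held the only match among the members to the DR5 element bound by retinoic acid receptors (2 nuclear receptor sites separated by 5 bases, searched on both strands). The match, in capitals, lies at -32 to -16 from the RefSeq start, which is downstream of the gene start given above, and 32 of 32851 promoter windows (0.0974%) held one.
*Cyp26a1*, chr19:37697558-37697797, plus strand: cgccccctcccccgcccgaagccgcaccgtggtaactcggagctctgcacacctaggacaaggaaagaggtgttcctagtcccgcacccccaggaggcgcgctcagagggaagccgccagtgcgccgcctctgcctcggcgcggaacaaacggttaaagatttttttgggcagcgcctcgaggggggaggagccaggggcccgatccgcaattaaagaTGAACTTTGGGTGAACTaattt

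*Cyp26a1* varied widely between mice, with an SD above the mean in the HFCFD2W knockouts (3.00 ± 3.64 CPM, SD, n = 5) and the HFCFD8W+T10D knockouts (1.74 ± 1.92 CPM). *Cyp26a1* in the HFCFD12W+T10W *Cebpa* fl/fl mice was 7.13, 4.76, 4.83, 11.02 and 6.77 CPM. The knockouts had 2.53, 4.53, 5.49, 2.92 and 3.88 CPM. The groups overlapped through 1 knockout, and the log2 fold change was -0.79 ± 0.26 (adjusted p = 0.0248). The call was lost without *Cebpa* fl/fl replicate 4 (adjusted p = 0.0606) or knockout replicate 1 (0.0583) or 4 (0.0588), in the joint fit of all 30 libraries (adjusted p = 0.158) and under scaling to library totals (-0.41, adjusted p = 0.185). In HFCFD8W+T10D the *Cebpa* fl/fl mice had 8.23, 6.60, 6.37, 2.74 and 2.75 CPM and the knockouts 1.59, 0.49, 5.09, 0.95 and 0.57 CPM. Apart from replicate 3, the knockouts lay below all *Cebpa* fl/fl mice, and the log2 fold change of -1.62 ± 0.56 did not pass (adjusted p = 0.0632), whereas without knockout replicate 3 it was -2.54 (adjusted p = 0.0045). With all mice kept, it passed with DESeq2 (adjusted p = 0.0231), in the joint fit (0.0268), without the low-count filter (0.0338) and with a replicate block (0.0169). It did not pass with upper quartile scaling (adjusted p = 0.0679) or library totals (0.0762). In HFCFD2W the *Cebpa* fl/fl mice had 0.45 to 2.38 CPM and the knockouts 0.71, 1.68, 9.46, 1.79 and 1.34 CPM. The log2 fold change of 1.06 ± 0.66 (adjusted p = 0.296) rested on knockout replicate 4 at 9.46 CPM and was -0.01 without it.

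**Figure D2:**
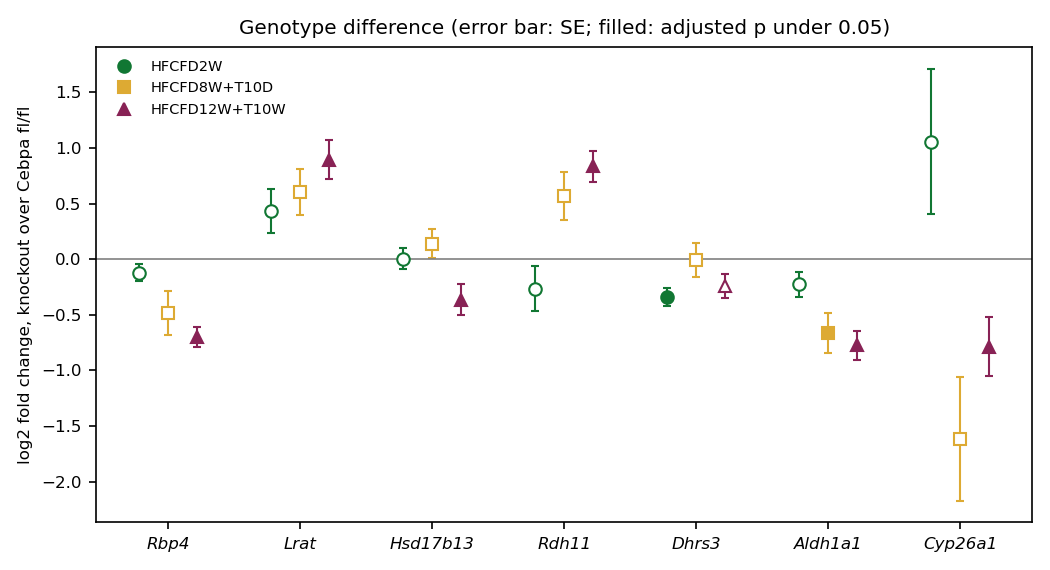
Log2 fold change of each tested gene, knockout over *Cebpa* fl/fl, in the 3 experiments, with its standard error. Filled symbols passed at an adjusted p under 0.05. In HFCFD12W+T10W (triangles) *Lrat* and *Rdh11* were higher and *Rbp4*, *Aldh1a1*, *Cyp26a1* and *Hsd17b13* lower, the last at 0.004 under scaling to library totals.

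The genotype ranges did not overlap for 4 of the 7 tested members in HFCFD12W+T10W (*Rbp4*, *Lrat*, *Rdh11* and *Aldh1a1*), where 39.1% of all tested genes were apart. They overlapped for all 7 in HFCFD2W and HFCFD8W+T10D, where 12.5% and 11.5% of genes were apart.

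Whether the genotype difference itself differed between experiments was tested as an interaction in 1 fit of all 30 libraries. Between HFCFD12W+T10W and HFCFD2W, 3 of 7 members differed, 1 upwards and 2 downwards, against 30.7% of 12964 genes (13.4% upwards, 17.3% downwards). The genotype difference of *Rdh11* was higher by 1.06 ± 0.29 on the log2 scale (adjusted p = 0.0072), and that of *Rbp4* was lower (difference -0.62 ± 0.19, adjusted p = 0.0124). For *Aldh1a1* the difference was -0.59 ± 0.21 (adjusted p = 0.0307), and its adjusted p was 0.05 or more in 9 of 30 fits without 1 library, up to 0.0719 without HFCFD12W+T10W knockout replicate 3. Under scaling to library totals *Rdh11* still passed (1.45), whereas *Rbp4* (-0.23, adjusted p = 0.152) and *Aldh1a1* (-0.20, adjusted p = 0.391) did not.

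Between HFCFD8W+T10D and HFCFD2W, *Cyp26a1* alone differed, against 11.2% of genes (4.45% upwards, 6.79% downwards), by -2.70 ± 0.84 on the log2 scale (adjusted p = 0.035). Without HFCFD2W knockout replicate 4 this difference was -1.62 (adjusted p = 0.176), and the adjusted p was 0.05 or more in 9 of 30 such fits. Between HFCFD12W+T10W and HFCFD8W+T10D 0 of 7 members passed in edgeR, against 10.5% of genes (4.97% upwards, 5.49% downwards). There, 1 member was at an unadjusted p under 0.05, namely *Hsd17b13* at -0.53 ± 0.18 (adjusted p = 0.0545), and DESeq2 called the same gene (adjusted p = 0.0491).

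The *Cebpa* fl/fl mice of the experiments differed as well. Between HFCFD2W and HFCFD8W+T10D, 4 of 7 members passed, against 43.6% of genes (22.2% higher and 21.5% lower in HFCFD8W+T10D). *Aldh1a1* was higher in HFCFD8W+T10D by 0.61 ± 0.15 on the log2 scale (adjusted p = 0.0013), and *Cyp26a1* by 1.91 ± 0.59 (adjusted p = 0.0105). *Rdh11* was lower (-0.72 ± 0.21, adjusted p = 0.0065), and *Dhrs3* was just past the threshold (-0.31 ± 0.13, adjusted p = 0.0497) and past it with none of DESeq2, scaling to library totals, upper quartile scaling or an unfiltered gene set. Thus the mean *Cyp26a1* level of *Cebpa* fl/fl mice was 1.39 ± 0.76 CPM (SD, n = 5) in HFCFD2W and 5.34 ± 2.47 CPM in HFCFD8W+T10D. Between HFCFD8W+T10D and HFCFD12W+T10W, 0 of 7 members passed in edgeR, against 11.4% of genes (6.31% higher and 5.12% lower in HFCFD12W+T10W), and 1 was at an unadjusted p under 0.05 (*Rdh11*, -0.49 ± 0.22, adjusted p = 0.152). These comparisons share control mice with the interactions above.

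Of 48 other genes of the retinoid pathway, 34, 35 and 35 could be tested in HFCFD2W, HFCFD8W+T10D and HFCFD12W+T10W. In knockouts 6, 8 and 6 were higher and 6, 4 and 14 lower, with median log2 fold changes of -0.02, 0.07 and -0.25. Of all tested genes 8.6%, 10.3% and 27.4% were higher and 8.09%, 6.85% and 23.8% lower. Among the 12 tested genes of retinol oxidation and retinaldehyde reduction in HFCFD12W+T10W, 6 were lower and 0 higher (median log2 fold change -0.45), against 23.8% and 27.4% of all tested genes. The receptors of retinoic acid and their RXR partners were 6 genes, of which 1 was higher and 3 lower there, against the same shares. At a fold change over 2, the higher genes numbered 4, 3 and 4 and the lower genes 1, 1 and 0. Of all tested genes 3.07%, 6.1% and 17.7% passed at that fold in either direction. Across the experiments these were 8 different genes.

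Among genes of transport and binding, *Rbp2*, the intestinal retinol-binding protein, had at most 3 counts in any *Cebpa* fl/fl library. The knockouts had 4.01 to 12.8 CPM in HFCFD8W+T10D and 1.69 to 5.49 CPM in HFCFD12W+T10W. Their means of 6.34 and 3.07 CPM were 18.8 and 9.08 times the level of 3 counts per library. *Bco1*, which cleaves carotene to retinaldehyde, was higher in each experiment, with log2 fold changes of 1.10 ± 0.18, 1.05 ± 0.28 and 1.01 ± 0.22. In HFCFD8W+T10D its adjusted p was 0.0207, and 0.0537 without *Cebpa* fl/fl replicate 4. Without knockout replicate 2 of that experiment, at 14.6 CPM, the log2 fold change was 0.73, below a fold of 2.

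The remaining genes past a fold of 2 each reached it in 1 experiment. In HFCFD2W the retinol dehydrogenase *Sdr16c5* rose from 0.43 to 5.42 CPM and the retinoic acid hydroxylase *Cyp26b1* from 1.24 to 8.59 CPM, and *Hsd17b6*, a dehydrogenase of retinol and steroids, fell from 194 to 41.9 CPM. The *Sdr16c5* level of *Cebpa* fl/fl mice rested on replicate 4 with 12 counts, beside 0, 1, 3 and 0 counts in the others, and without that mouse the log2 fold change moved from 3.60 to 5.16. In HFCFD12W+T10W the retinaldehyde dehydrogenase *Aldh1a2* was 1.83 to 3.38 CPM in knockouts, with at most 2 counts in any *Cebpa* fl/fl library. Its knockout mean of 2.43 CPM was 7.21 times the level of 3 counts per library. The aldehyde oxidase *Aox3* fell in HFCFD8W+T10D from 240.1 to 114 CPM (log2 fold change -1.06 ± 0.18, adjusted p = 0.0017) and in HFCFD12W+T10W by 0.57 on the log2 scale (adjusted p = 0.0215), a call lost under scaling to library totals (log2 fold change -0.20, adjusted p = 0.357).

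**Figure D3:**
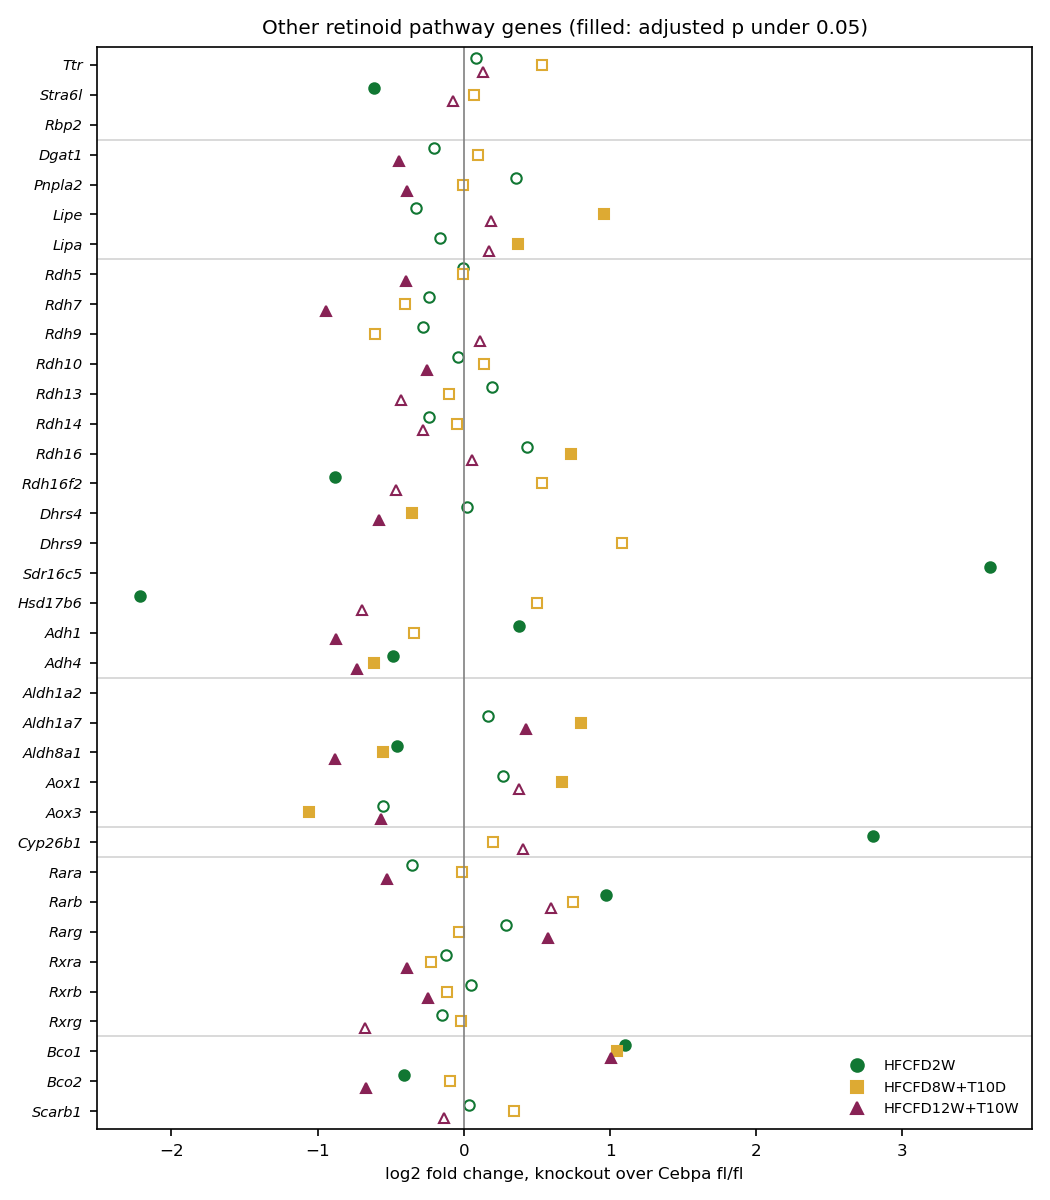
Log2 fold change, knockout over *Cebpa* fl/fl, of other retinoid pathway genes with enough counts, by experiment, grouped by role with grey lines between roles (from the top: transport and binding, esters, retinol and retinaldehyde, retinaldehyde oxidation, retinoic acid hydroxylation, receptors, carotenoids). Filled symbols passed at an adjusted p under 0.05, and the 3 values of *Rbp2* and *Aldh1a2* whose *Cebpa* fl/fl libraries held 3 counts or fewer are not drawn. *Bco1* was higher in each experiment.

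How the members varied between mice of the same group was described by Pearson's r of log2 CPM after each group's mean was taken off, over 30 libraries and 12964 genes. The libraries share scaling and composition, so these values are descriptions. The genes most like *Rbp4* were *Cyp2d10* (r = 0.91) and *Azgp1* (0.90), and those most like *Aldh1a1* were its paralog *Aldh1a7* (0.84) and *Entpd5* (0.81). *Rdh11* varied most like *Pmvk* and *Nsdhl* (both 0.83), enzymes of cholesterol synthesis. *Dhrs3* was most like *Rnf152* (0.87) and *Clmn* (0.85), *Hsd17b13* most like *Tns1* (0.83) and *Bcl2l1* (0.81), and *Cyp26a1* most like *Fau* (0.74) and *Cuta* (0.71). The gene closest to *Lrat* within groups was *Cebpa* itself (0.70), followed by *Stc2* (0.68).

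Between members, the highest r was that of *Cyp26a1* and *Lrat* (0.65, n = 30). The mouse with the most *Cyp26a1* was also the mouse with the most *Lrat* in 4 of 6 groups. They were knockout replicate 4 of HFCFD2W, knockout replicate 3 and *Cebpa* fl/fl replicate 1 of HFCFD8W+T10D, and *Cebpa* fl/fl replicate 4 of HFCFD12W+T10W. Without both of these knockouts r was 0.40 (n = 28). The next highest between members was *Aldh1a1* with *Hsd17b13* (0.37).

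**Figure D4:**
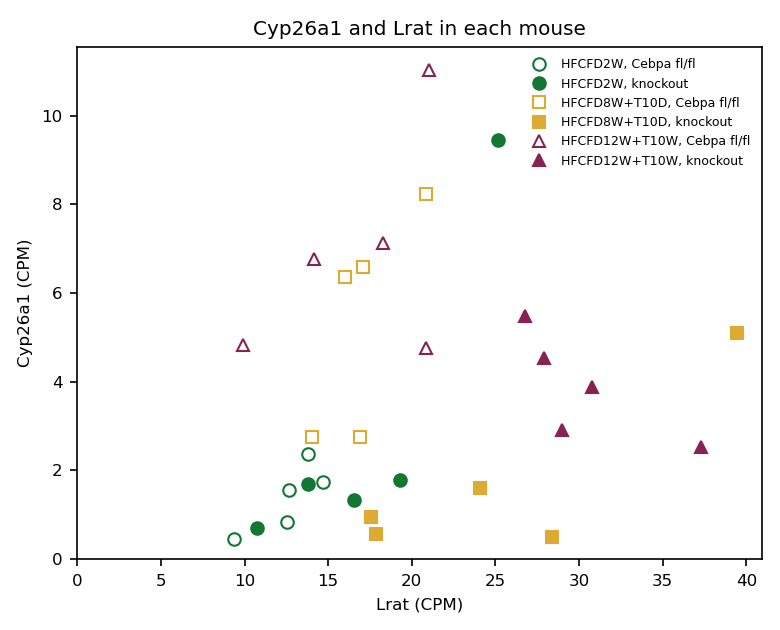
*Cyp26a1* against *Lrat*, both in CPM, in each of the 30 mice. Colours and shapes mark the experiment, open symbols *Cebpa* fl/fl mice and filled symbols knockouts. The HFCFD2W knockout at 25.1 CPM *Lrat* and 9.46 CPM *Cyp26a1* and the HFCFD8W+T10D knockout at 39.4 and 5.09 CPM stand above their groups on both axes.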

How the data were processed

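Liver poly(A) RNA (stranded libraries) of 30 mice was analysed, 5 per group in 6 groups, 1 library per mouse. Per the labels, the submitters' processing notes name Trimmomatic 0.36, STAR 2.5.1, Picard 1.84, RSEM 1.2.22, DESeq2 and build mm10. The authors deposited RSEM expected counts and TPM per gene, and all 55450 identifiers were found in GENCODE M21 (GRCm38). Reads that fit several genes were split by RSEM. For the tests, values were rounded to whole counts, filterByExpr took out sparsely counted genes, TMM scaled the libraries, and genotypes were compared within each experiment with edgeR 4.0.16 (R 4.3.3), with Benjamini-Hochberg adjustment over all tested genes. Interactions and comparisons of *Cebpa* fl/fl mice used 1 fit of all 30 libraries. Log2 CPM used a prior count of 2. The test of *Pnpla3* was chosen after its counts were seen to be too low for the model. On simulated HFCFD12W+T10W-like counts for 12448 genes, 68 of 100 genes changed 2-fold and 100 of 100 changed 4-fold were recovered. The simulation gave every gene the same fixed spread, not estimated from these data. It changed few genes, equally up and down, and left out genes with low counts. Its recovery is therefore not the sensitivity for the members. Alternatives were DESeq2 1.42.0, no filter, upper quartile scaling, library totals (added after the data were seen), the joint fit, a replicate block and leaving out each mouse.

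The members and gene lists were chosen with earlier results of these data known. Other genes were named when they belonged to the pathway list and passed with a fold over 2, or were the 2 genes most like a member. Markers of other cells were also examined. Of tested macrophage markers, 2 of 5, 4 of 6 and 4 of 6 were higher in the 3 experiments. In HFCFD12W+T10W 1 was lower. Cholangiocyte markers were higher for 0 of 1, 2 of 4 and 4 of 4 tested genes, and endothelial markers lower for 0, 1 and 2 of 5. Lymphocyte markers were higher for 2 of 2 tested genes in HFCFD12W+T10W and 0 of 1 in HFCFD8W+T10D, and could not be tested in HFCFD2W. Of all tested genes 8.6%, 10.3% and 27.4% were higher and 8.09%, 6.85% and 23.8% lower. The deposited normalized count and FPKM tables were not used. Of the pathway genes that the naming rule picked, 1 is counted but not reported here by name.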

Additional observations from a re-analysis of the deposited data

Results flagged for a closer look

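The difference between genotypes differed between experiments for 4 members by the interaction test in edgeR. Between HFCFD12W+T10W and HFCFD2W it changed by -0.62 on the log2 scale for *Rbp4*, by 1.06 for *Rdh11* and by -0.59 for *Aldh1a1*, and between HFCFD8W+T10D and HFCFD2W by -2.70 for *Cyp26a1*. Cre strain, feeding time and tamoxifen changed together between these experiments, so their parts cannot be told apart.

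In 6 of 48 groups of 5 mice 1 mouse stood far from the others. The gap of that mouse to its nearest neighbour, as a fraction of the range of the group, exceeded Dixon's 95% critical value in each. That value flags about 1 in 20 groups of independent normal values. CPM need not be normal and the members share mice, so the 6 groups do not show an excess over chance. For *Cyp26a1* it was 0.877 in the HFCFD2W knockouts (replicate 4, highest) and 0.761 in the HFCFD8W+T10D knockouts (replicate 3, highest). For *Rdh11* it was 0.761 in the HFCFD2W knockouts (replicate 5, highest) and 0.724 in the HFCFD12W+T10W *Cebpa* fl/fl mice (replicate 4, highest). For *Pnpla3*, at a few counts per library, it was 0.773 in the HFCFD2W knockouts (replicate 5, highest) and 0.765 in the HFCFD12W+T10W knockouts (replicate 1, lowest).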

How the results depend on the processing

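The number of members past the threshold within HFCFD2W was 1, and 0 in the joint fit, 0 with a fold over 2, and 1 to 2 with 1 mouse left out. Within HFCFD8W+T10D it was 1, but 3 with DESeq2, 3 without the low-count filter, 3 with library totals, 5 in the joint fit, 0 with a fold over 2, and 0 to 3 with 1 mouse left out. Within HFCFD12W+T10W the 6 members fell to 0 with a fold over 2 and stayed within 1.5 times under the other settings. For the interactions, HFCFD8W+T10D minus HFCFD2W gave 1 member, and 2 with DESeq2, 2 with library totals, 0 with the replicate block, 0 at an adjusted p under 0.01, and 0 to 2 with 1 library left out. HFCFD12W+T10W minus HFCFD2W gave 3, and 1 at an adjusted p under 0.01. HFCFD12W+T10W minus HFCFD8W+T10D gave 0, and 1 with DESeq2 and 0 to 1 with 1 library left out. The *Cebpa* fl/fl mice of HFCFD8W+T10D against HFCFD2W gave 4, and 2 at an adjusted p under 0.01. Apart from the fold over 2, the share of all tested genes that passed was not computed for these other settings. A changed count may therefore not be particular to the members.

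Signs changed only for values that were near 0 or not past the threshold, with the exception of *Hsd17b13* in HFCFD12W+T10W. With library totals the log2 values became 0.0043 for *Hsd17b13* and 0.12 for *Dhrs3* in HFCFD12W+T10W, 0.17 for *Dhrs3* in HFCFD8W+T10D, 0.0089 for *Rbp4* and 0.080 for *Aldh1a1* in HFCFD12W+T10W minus HFCFD8W+T10D, 0.083 for *Rbp4* in *Cebpa* fl/fl mice of HFCFD8W+T10D minus HFCFD2W, and 0.034 for *Lrat* in *Cebpa* fl/fl mice of HFCFD12W+T10W minus HFCFD8W+T10D. With upper quartile scaling they were -0.0063 for *Hsd17b13* in HFCFD2W and 0.029 for *Dhrs3* in HFCFD8W+T10D. With 1 library left out the ranges were -0.074 to 0.054 for *Hsd17b13* and -0.014 to 1.32 for *Cyp26a1* in HFCFD2W, -0.14 to 0.0755 for *Dhrs3* and -0.039 to 0.40 for *Cyp26b1* in HFCFD8W+T10D, -0.052 to 0.33 for *Lrat* in HFCFD8W+T10D minus HFCFD2W, and -0.10 to 0.13 for *Lrat* and -0.023 to 0.17 for *Hsd17b13* in *Cebpa* fl/fl mice of HFCFD12W+T10W minus HFCFD8W+T10D. Apart from the choice of scale and the left-out mice, the cause was not tested.

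The labels did not say that replicate numbers pair the mice, and the correlation of same-numbered mice was -0.231 to 0.184. Differently numbered mice were not compared, so pairing was not excluded. With the replicate block *Hsd17b13* in HFCFD2W became -0.079, *Aldh1a1* in HFCFD8W+T10D had an adjusted p of 0.0518 and *Cyp26a1* in HFCFD12W+T10W one of 0.063, while *Cyp26a1* in HFCFD8W+T10D (-1.86, adjusted p = 0.0169) and *Dhrs3* in HFCFD12W+T10W (-0.25, adjusted p = 0.0377) came to pass. The interactions of *Aldh1a1* for HFCFD12W+T10W minus HFCFD2W (adjusted p = 0.0552) and of *Cyp26a1* for HFCFD8W+T10D minus HFCFD2W (0.0927) no longer passed. The block changed no other genotype or interaction call of a member. Depth limited *Pnpla3*, and *Cyp26a1* had as few as 3 counts in a library.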
